A study of Ecsenius pulcher with 24 samples.

Results

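The 100 features described here had higher transcript levels in tail muscle of the reef blenny Ecsenius pulcher while the fish were held in low oxygen than in control fish sampled at that time, and differed little between exposed and control fish later. They were taken from the 518956 features of the deposited table by a rule on measured values. Counts of each library were divided by the column sum and multiplied by 1000000 (CPM), and L is log2(CPM + 0.1). A mean of at least 1 CPM in the acute hypoxic fish was reached by 41209 features. In 838 of these at least 5 of the 6 acute hypoxic fish lay above the highest acute control, and in 820 the mean L of the later hypoxic and control fish also differed by less than 1. None of the 820 was among the 100 most abundant features, which the rule leaves out. The 100 with the largest difference in mean L between acute hypoxic and acute control fish were kept and ranked, rank 1 being the largest.

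The series has 24 fish in 4 groups of 6, each library being a cross section of anterior tail muscle from 1 fish, with the skin removed. Acute hypoxic fish were sampled during an exposure that copied oxygen profiles of local reefs, and acute control fish at the matching time without it. Post hypoxic fish had been exposed and were then returned to oxygen and left to recover, and post control fish were their unexposed time-matched partners. No strain, genotype, age or drug is named in the labels for any group, and for oxygen levels and durations no value is given in the sources used here.

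In vertebrate cells low oxygen stabilises hypoxia-inducible factors, transcription factors that switch on genes for glycolysis, oxygen delivery and the control of cell metabolism, and that are broken down again when oxygen returns. White muscle, which makes up most of a fish's tail, relies on glycolysis for bursts of swimming and tolerates low oxygen comparatively well. Features carry IDs in the style of Trinity, an assembler of transcripts without a genome, and the files do not pair these IDs with gene names or sequences. No member can therefore be assigned to a pathway or a cell type, and the labelled tissue could not be checked against muscle, blood or skin markers. Members are given by rank, and a few by ID. Muscle is a bulk sample, so a change in RNA per cell and a change in the share of a cell type cannot be told apart.

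Library totals were 31085706 to 43603403 estimated counts. On the CPM scale of the rule the median feature was itself 0.20 log2 units higher in acute hypoxic than in acute control fish (65664 features tested), so differences in L are to be read against that shift. Fitted log2 fold changes below come from edgeR with TMM scaling, under which the same median was 0.02. The values that chose the members, which are the acute differences, the separation from controls and the small post differences, are given as a description. The edgeR p-values of the acute contrast are printed to show where a member lies among all features tested, and they support nothing about the list. Acute hypoxic fish 1 lay apart from the other 5 exposed fish on the members, so values are also given without it.

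The member ranked first, TRINITY_DN1841_c1_g2, stood at 0.508, 3.24, 5.02, 0.951, 0.297 and 1.16 CPM in acute controls 1 to 6. In acute hypoxic fish 1 to 6 it stood at 3.05, 38.5, 43.8, 89.4, 67.9 and 68.4 CPM. Hypoxic fish 2 to 6 were far above every control, whereas hypoxic fish 1 lay below controls 2 and 3. Post controls were at 1.15, 2.70, 0.187, 1.04, 1.80 and 2.59 CPM. Post hypoxic fish were at 6.67, 1.49, 0.547, 0.883, 1.35 and 0.109 CPM. The post groups overlapped each other and the acute controls. The fitted acute change, 4.58 log2 units (SE 0.88, n = 6 fish per group), had an edgeR adjusted p of 0.0676 and did not pass 0.05.

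Ranks 1 to 5 moved together. Their summed level was 2.76 to 38.9 CPM in acute controls, 16.7 CPM in acute hypoxic fish 1, and 253, 315, 544, 435 and 425 CPM in acute hypoxic fish 2 to 6. In post controls the sum was 3.67 to 19.8 CPM, and in post hypoxic fish it was 2.67 to 42.6 CPM. The 5 members held 18.5% of all member CPM in the acute hypoxic fish. Ranks 2 and 3 are features of the same assembly read cluster, and the level of rank 3 was 2.49 to 3.41 times that of rank 2 in acute hypoxic fish 2 to 6. Ranks 4 and 5 also share a larger assembly component, in different read clusters, so the 5 members need not be separate genes.

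**Figure D1:**
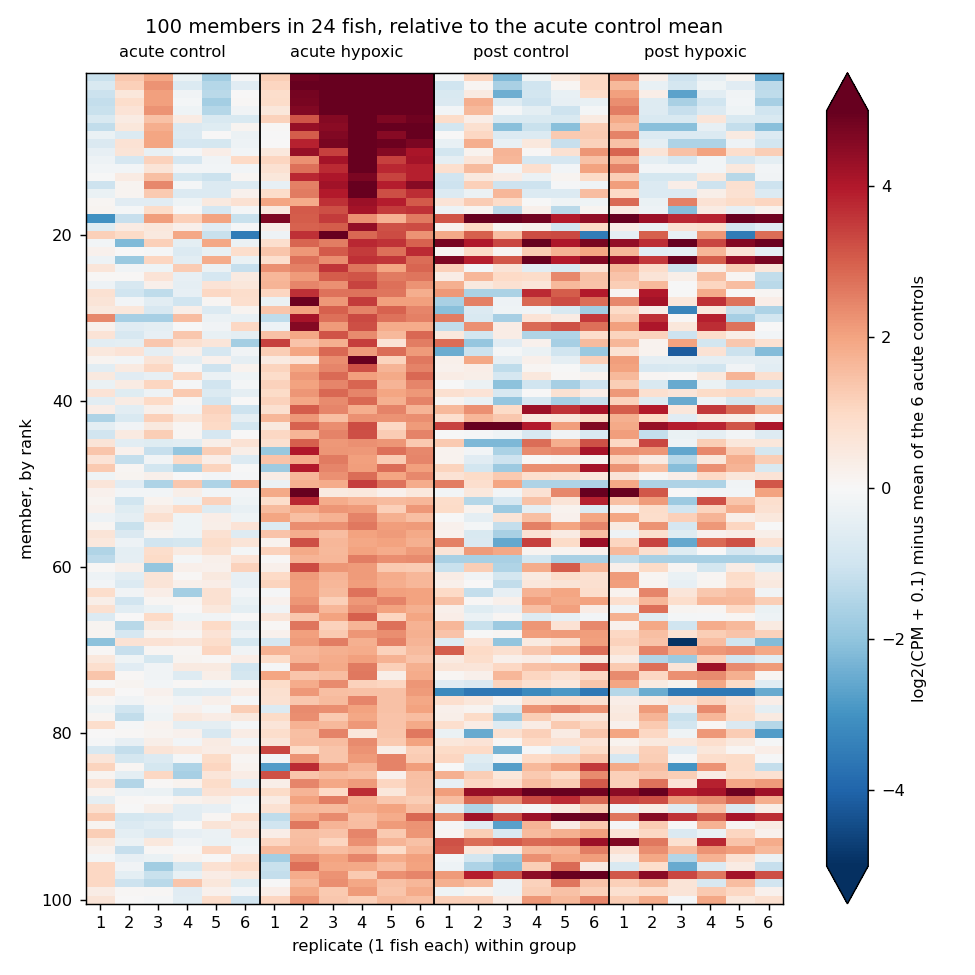
Heat map of the 100 members (rows, by rank) in the 24 fish (columns, by group and replicate); colour is log2(CPM + 0.1) minus the mean of the 6 acute controls, cut at 5 log2 units either way. Acute hypoxic fish 2 to 6 are dark red at the top ranks, acute hypoxic fish 1 is pale, and a few rows are red or blue in all 12 post fish.

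Ranks 6 to 9 showed the same pattern at lower levels. Rank 6 was at 0 to 0.367 CPM in acute controls and at 0.282, 1.42, 3.94, 13.4, 4.17 and 4.86 CPM in acute hypoxic fish. Rank 8 was at 0 to 0.527 CPM and at 0.0564, 1.21, 3.87, 13.8, 3.65 and 5.42 CPM. Rank 7 reached 20.5 CPM and rank 9 reached 10.9 CPM in hypoxic fish 4, from highest controls of 1.40 and 1.05 CPM. In each of the 4 the highest control was fish 3, the highest exposed fish was fish 4 and the lowest was fish 1. None of these 4 was called in the acute comparison (edgeR adjusted p 0.0937 to 0.221).

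Over the whole list the acute difference in mean L ran from 1.49 to 4.77, with a median of 1.90. It was at least 4 for 7 members, at least 3 for 17 and at least 2 for 44. Mean levels in acute hypoxic fish ran from 1.01 to 244 CPM with a median of 5.41, and in acute controls from 0.00972 to 72.0 CPM with a median of 1.07. The members were thus mostly of low abundance: 35 reached 10 CPM during hypoxia and 3 reached 100. Behind a member stood 235 to 57465 counts over the 6 acute hypoxic libraries, and 2.05 to 16088 over the 6 acute controls.

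The most abundant member was that at rank 42, with 19.98, 34.4, 132, 85.4, 118 and 42.3 CPM in acute controls 1 to 6. In acute hypoxic fish 1 to 6 it stood at 183, 260.0, 166, 281, 279.8 and 294 CPM. All 6 hypoxic fish, fish 1 included, were above all 6 controls, and the controls themselves spread widely. The fitted change of 1.69 log2 units (SE 0.43) did not pass (edgeR adjusted p 0.465).

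Of the other abundant members, rank 69 was at 6.70, 47.4, 46.7, 43.4, 53.0 and 15.2 CPM in acute controls and at 15.9, 125, 168, 98.35, 165 and 92.7 CPM in acute hypoxic fish. Rank 33 was at 3.99 to 33.2 CPM in controls and at 142, 35.1, 45.4, 145, 21.3 and 78.9 CPM in exposed fish. Rank 38, of the same component as rank 1, was at 7.95 to 32.9 CPM and at 35.2, 63.9, 86.0, 119, 51.5 and 86.8 CPM. Hypoxic fish 1 was inside the control range for rank 69, second highest for rank 33 and just above all controls for rank 38. None of the 3 was called (edgeR adjusted p 0.669 to 1.00).

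The edgeR test was fitted to all 65664 features that passed a filter on low counts, and 99 of the 100 members were among them. Called higher during acute hypoxia were 11 members, out of 14 features or 0.0213% of all those tested, and no member was called lower. The rule used this contrast, so nothing is read from the count. The edgeR adjusted p-values of the 11 lay between 0.0309 and 0.0487, and 96 members had an unadjusted p under 0.05. No share of all features is set beside the 96, and nothing is read from it either. The median fitted log2 fold change was 1.89 over the 99 members and 0.02 over all features tested. The 3 called features that are not members had post differences of 1.14 to 1.40 in L, beyond the bound of the rule.

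The calls were not simply the members with the largest change. They held ranks 2, 3, 10, 13, 16, 17, 22, 26, 49, 76 and 81, from 9 read clusters, with fitted folds of 2.91 to 23.8 and standard errors of 0.26 to 0.84 log2 units. Among members the smallest p belonged to rank 10, TRINITY_DN16783_c1_g1. It stood at 0.178, 0.477, 0.183, 0.253, 0.356 and 0.230 CPM in acute controls and at 0.423, 7.34, 3.77, 15.4, 8.78 and 6.13 CPM in acute hypoxic fish. Hypoxic fish 1 fell within the control range and the other 5 lay well above it (log2 fold change 4.52, SE 0.72, edgeR adjusted p 0.0309).

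Rank 76 had a far smaller change and the same adjusted p. It stood at 5.31, 4.44, 5.48, 4.50, 5.96 and 4.81 CPM in acute controls and at 8.61, 13.1, 15.2, 27.8, 14.005 and 19.7 CPM in acute hypoxic fish. The groups did not overlap, and the control SD was 0.602 CPM on a mean of 5.08 CPM (log2 fold change 1.55, SE 0.26, edgeR adjusted p 0.0309). Rank 81, of the same read cluster as rank 76, had a fitted change of 2.91-fold. Rank 17 was at 1.16 to 4.24 CPM in acute controls and at 3.10, 18.8, 21.2, 41.0, 25.8 and 28.03 CPM in acute hypoxic fish, so that only fish 1 lay within the controls. Rank 49 resembled rank 76, with 3.10 to 4.31 CPM in acute controls and 4.71, 11.5, 17.97, 25.6, 14.6 and 19.6 CPM in acute hypoxic fish (log2 fold change 1.93, SE 0.35, edgeR adjusted p 0.0487).

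A further 4 called members were rare in controls. Rank 16 was at 0.201 to 0.651 CPM in acute controls and at 1.66, 1.54, 5.51, 8.64, 6.67 and 3.62 CPM in acute hypoxic fish. Rank 26 was at 0.125 to 0.534 CPM and at 1.19, 2.01, 1.81, 4.00, 2.58 and 1.79 CPM. Rank 22 was at 0.285 to 1.05 CPM and at 1.55, 2.70, 5.15, 7.03, 4.15 and 8.23 CPM. In these 3 all exposed fish, fish 1 included, were above all controls. In rank 13, with 0.237 to 1.90 CPM in controls, hypoxic fish 1 was at 0.953 CPM and the other 5 were at 7.34 to 18.2 CPM.

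Without acute hypoxic fish 1 the number of members called rose to 33, and without post hypoxic fish 1 it was 21. It was 0 without any single acute control, without acute hypoxic fish 4, 5 or 6, with limma voom, and when the 12 acute libraries were fitted alone. It was 4 to 8 without acute hypoxic fish 2 or 3 or any other post fish, and 36 with DESeq2. These refits repeat the contrast that the rule used. No share of all features called is set beside the counts, so nothing about the members is read from them.

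**Figure D2:**
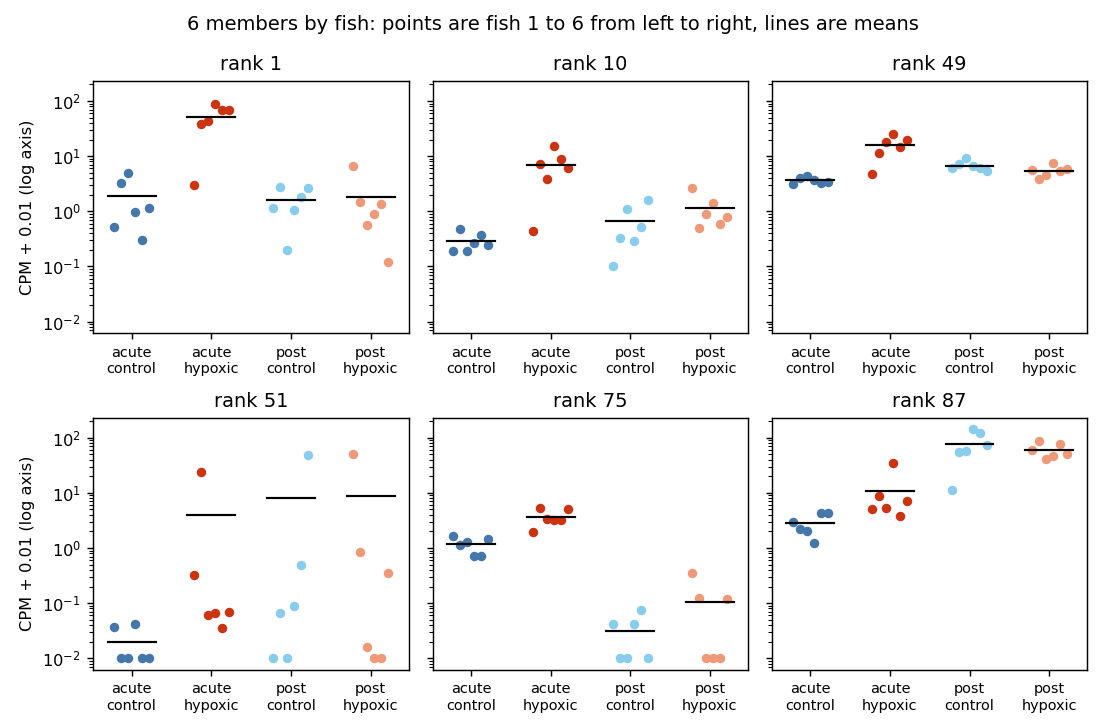
CPM plus 0.01 (log axis) of 6 members in every fish, by group; points are fish 1 to 6 from left to right and lines are arithmetic means. Ranks 1, 10 and 49 are raised in acute hypoxic fish 2 to 6, rank 51 is high in 3 fish of 3 groups, rank 75 is near 0 in all post fish, and rank 87 is highest in the post groups.

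Acute hypoxic fish 1 stood apart from the other exposed fish on these features. The rule lets 1 of the 6 hypoxic fish lie at or below the highest control, without saying which. In 34 members all 6 lay above. Of the 41209 features with at least 1 CPM, 838 (2.03%) had 5 of 6 or more above, and 159 (0.386%) had all 6. The members were chosen from the 838 and ranked by the same difference, so their share follows in large part from the rule. In 58 members the fish that failed was fish 1, in 8 it was fish 5, and in 0 members it was fish 2, 3, 4 or 6. Fish 1 had the lowest level of the 6 in 84 members, against 19.0% of all features tested. It lay above every acute control in 42 members, against a background of 34.2% of tested features, and under the control median in 25. Among ranks 1 to 25 it was above every control in 6. The rule let 1 exposed fish stay low in the members, whereas the tested features as a whole did not have to meet it. The counts for fish 1 are therefore a description of the list.

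The mean L of the 100 members summarises this by fish. It was 0.29 ± 0.19 (SD, n = 6) in acute controls, with 0.55 as the highest fish. In acute hypoxic fish it was 0.94 in fish 1 and 2.85, 2.77, 3.21, 2.59 and 2.78 in fish 2 to 6. Fish 1 lay above the control range on this mean but nearer to the controls than to the other exposed fish. The difference between the groups was 2.23 with fish 1 and 2.55 without it.

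Since the list was chosen on these fish, each acute fish was also read on a list of 100 features chosen without it, requiring all but 1 of the remaining hypoxic fish to lie above the highest remaining control. Each list favours low levels in the controls used, which raises the distance of a left-out fish of either group from them. The distances of hypoxic fish are therefore to be read against those of left-out controls. Relative to the mean of the controls used, the left-out hypoxic fish 2 to 6 stood 2.03, 2.29, 2.30, 2.04 and 2.33 log2 units higher. Left-out hypoxic fish 1 stood 0.07 higher. Left-out controls stood 0.36, -0.15, 0.70, 0.30, 0.89 and 0.26 from the other controls. Fish 2 to 6 were therefore above every left-out control, and fish 1 lay inside the range of the controls. On its own list, left-out fish 1 exceeded every control for 23 of 100 features. The counts were 77 to 92 for hypoxic fish 2 to 6 and 8 to 47 for the controls. A left-out hypoxic fish was set against all acute controls, and a left-out control only against the remaining ones. Over all tested features fish 1 exceeded every acute control in 34.2%, and no such share is set beside the other fish. These counts are a description. The labels place fish 1 in the hypoxic group, and whether its exposure or its label differed from the others was not tested. Values given for all 6 acute hypoxic fish, the 11 calls included, depend on that label.

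**Figure D3:**
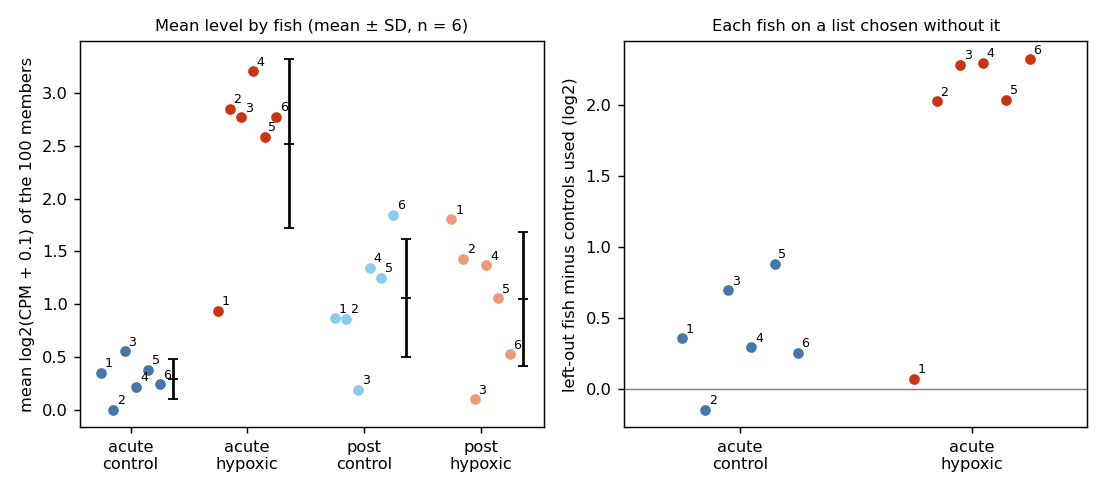
Left, mean log2(CPM + 0.1) of the 100 members in each fish by group, with the group mean and SD (n = 6); right, each acute fish on a list chosen without it, as its distance in log2 units from the controls used. In both, acute hypoxic fish 2 to 6 are above all acute controls, and left-out hypoxic fish 1 is at 0.07, within the controls.

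The fish that was highest in its group differed in frequency between members and all features. In the acute groups the rule bears on this directly, since it passes over features with a high control and favours those with a very high exposed fish, so the acute shares are a description of the list. In the acute hypoxic group fish 4 was highest for 50 members, against 5.61% of all features tested, followed by fish 2 with 21 and fish 3 with 12. Among acute controls fish 3 was highest for 35 members, against 11.1% of tested features, while fish 5 was highest for 23, against 50% of tested features, and a feature in which that control is high is less likely to meet the rule. Among the 12 post fish, post hypoxic fish 1 was highest for 34 members, against 10.1% of tested features. Counting each read cluster once, hypoxic fish 4 was highest in 45 of 89, and acute control 3 in 30. Different read clusters can still run nearly in parallel, so this does not remove all repeats. Ranks 21 and 23 are an example, with means of 49.6 and 52.0 CPM in acute hypoxic fish and 144 and 150 CPM in post controls. Members of a read cluster share reads or sequence, and all members of a fish share its library, so these shares are a description.

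The same fish led most often at the top of the list. In ranks 1 to 10, acute hypoxic fish 4 was highest 9 times and fish 1 lowest 10 times, acute control 3 was highest 9 times, and post hypoxic fish 1 was the highest of its group 10 times. These 10 are not separate units: ranks 1 and 9 share a read cluster, as do ranks 2 and 3, and ranks 4 and 5 share a component. No share of all features is set beside the counts by rank, which are a description. Post hypoxic fish 1 was the highest of all 12 post fish for 17 of ranks 1 to 25 and for 1 of ranks 76 to 100. Acute control 3 was the highest control for 18 of ranks 1 to 25 and for 3 of ranks 76 to 100.

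The leading fish in other groups can be set beside the leading exposed fish, with no test of the difference and no share of all features. Of the 50 led by acute hypoxic fish 4, acute control 3 led the controls in 29 and post hypoxic fish 1 led its group in 27. Of the 21 led by acute hypoxic fish 2, the counts were 0 and 2, and of the 12 led by acute hypoxic fish 3 they were 0 and 6. Median rank was 39, 57 and 43 in the members led by fish 4, 2 and 3.

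**Figure D4:**
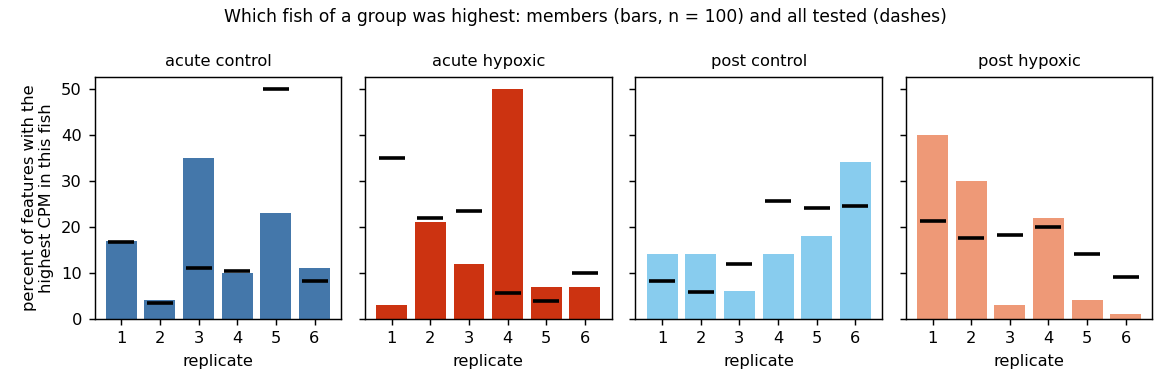
Percent of features whose highest CPM within a group fell in each fish, for the 100 members (bars) and all 65664 tested features (dashes). Acute hypoxic fish 4 (50 against 5.61), acute control 3 (35 against 11.1) and post hypoxic fish 1 (40 against 21.2) exceeded the dashes most, and acute control 5 (23 against 50) and acute hypoxic fish 1 (3 against 34.9) fell furthest below.

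After recovery the member levels did not separate exposed from control fish, as the rule requires of their means. The post difference in mean L ran from -0.97 to 0.92 with a median of -0.02, and was above 0 in 49 members and below in 51. In 71 members it was smaller than 0.5 either way. Averaged over the list, L was 1.06 ± 0.56 (SD, n = 6) for post controls and 1.05 ± 0.63 for post hypoxic fish. No member and no other feature (0%) was called between the post groups with edgeR, and DESeq2 and limma voom called no member. Of the 99 members tested, 6 had an unadjusted edgeR p under 0.05. The rule bounds this difference, and no share of all features is set beside the 6 or beside the DESeq2 and limma voom counts. Nothing about the members is read from any of these counts.

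For the acute effect minus the post effect, edgeR called 0 members and 0% of all features, with 71 members at an unadjusted p under 0.05. DESeq2 called 7 members and limma voom 0, and edgeR called 2 without acute hypoxic fish 1. Both parts of that difference were fixed by the rule, and no share of all features is set beside the 71. Nothing is read from these counts. The bound in L also treats rare features mildly. Rank 75 had a post difference of 0.47 in L but a fitted post change of 2.05 log2 units (SE 0.88; edgeR adjusted p 1.00), on 4 counts over the 6 post controls and 19 over the 6 post hypoxic fish.

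The name "raised only during acute hypoxia" did not describe all members. The mean L of the list was 0.77 higher in post controls than in acute controls, which are different fish. In 81 members both post means lay below the acute hypoxic mean, in 14 both lay above it, and in 5 only 1 did. The rule bears on these counts through high acute hypoxic levels and close post means. No share of all features is set beside them. All 12 post fish lay below the lowest of acute hypoxic fish 2 to 6 in 35 members, against 0.828% of tested features. The rule chose members for high levels in the acute hypoxic fish, and fish 1 was set aside after its low levels were seen, so this count is largely fixed by the choice. Of these 35, 19 were among ranks 1 to 25. All 12 lay above the highest acute control in 9 members, against 1.65% of tested features, with acute controls that the rule selected to be low. Time point and any sampling or library batch divide these libraries the same way and cannot be told apart.

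The comparison of post with acute controls was not part of the rule, although it shares the acute controls, which the rule selected to be low. Between these groups edgeR called 15 members, against 7.88% of all features. Of these 13 were higher in post controls, against 4.08%, and 2 lower, against 3.8%. The median log2 fold change was 0.36 over the 99 members and 0.04 over all features. Of the 13, 12 had both post means above the acute hypoxic mean.

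TRINITY_DN13731_c0_g2, at rank 87, was at 2.92, 2.16, 2.06, 1.204, 4.33 and 4.21 CPM in acute controls and at 5.05, 8.59, 5.29, 34.8, 3.85 and 7.001 CPM in acute hypoxic fish. In post controls it stood at 11.3, 54.4, 56.6, 143, 120.0 and 75.1 CPM. In post hypoxic fish it stood at 60.8, 87.02, 40.3, 46.9, 78.3 and 51.1 CPM. Every post fish was above every acute control, and its level during hypoxia was low beside that of later unexposed fish (post against acute controls, log2 fold change 4.27, SE 0.58, edgeR adjusted p 2.92e-05). TRINITY_DN1317_c3_g1, at rank 88, was at 1.45 ± 0.269 CPM (SD, n = 6) in acute controls and 4.88 ± 2.45 CPM in acute hypoxic fish. Later it stood at 11.6 ± 5.53 CPM without and 10.3 ± 4.39 CPM after exposure (post against acute controls, log2 fold change 2.53, SE 0.35, edgeR adjusted p 3.53e-05).

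A pair of members went the other way. TRINITY_DN4937_c3_g1, at rank 75, was at 1.15 ± 0.388 CPM (SD, n = 6) in acute controls and at 1.98, 5.33, 3.33, 3.25, 3.21 and 5.11 CPM in acute hypoxic fish. It was then close to 0 in both post groups, at 0 to 0.0643 CPM in post controls and 0 to 0.347 CPM in post hypoxic fish (post against acute controls, log2 fold change -6.13, SE 0.76, edgeR adjusted p 7.51e-06). TRINITY_DN335_c5_g1, at rank 59, had 57 counts over the acute controls, 263 over the acute hypoxic fish, 2 over the post controls and 1 over the post hypoxic fish. Its control difference between time points passed too (edgeR adjusted p 0.00132).

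Between post and acute hypoxic fish, whose acute libraries the rule selected to be high, edgeR called 53 members, against 6.06% of all features. Of these 52 were lower after recovery, against 3.45%, and 1 higher, against 2.62%. Without acute hypoxic fish 1 the count was 55, with no share of all features set beside it, and nothing is read from that change. The one called higher was rank 87. The 52 had log2 fold changes of -7.32 to -1.07, with a median of -2.42. Between the control groups the median of the same 52 was -0.19. The rule required a large acute difference and a small post difference, and the 52 were picked for being lower. The gap between these medians is therefore largely fixed by the choice. All 11 members called in the acute comparison were among the 52, and none of the 11 was called between the control groups. Both hypoxic comparisons use the same acute hypoxic libraries, and no share of all features is set beside this overlap. Between the control groups 7.88% of all features were called, so few calls among 11 members would be usual. Nothing is read from either count. Of the 52, 50 were not called between control time points and 2 were lower in both, which were ranks 59 and 75. Ranks 1 to 25 held 21 of the 52, and ranks 76 to 100 held 9. Rank follows the acute difference, which shares the acute hypoxic libraries, so this split is a description. By p the leading members were ranks 75 and 59.

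**Figure D5:**
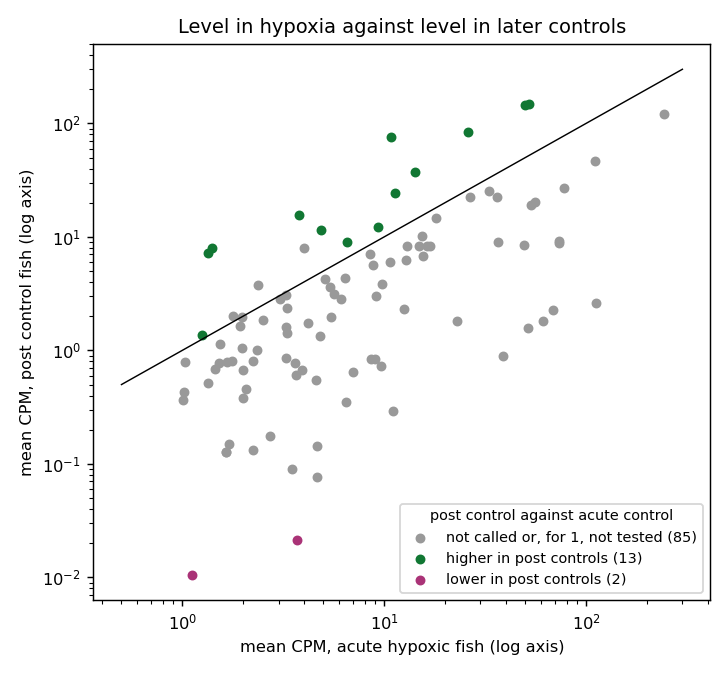
Mean CPM of each member in acute hypoxic fish (horizontal, log axis) and in post control fish (vertical, log axis), with the line of equal levels; colours show the edgeR call between post and acute controls. Most members lie under the line, 12 of the 13 called higher in post controls have both post means above their hypoxic mean, and the 2 called lower are at the bottom.

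The share of the hypoxic signal carried by 1 fish varied. The highest of the 6 acute hypoxic fish held 18.8% to 97.9% of the summed CPM of a member, with a median of 28.7%, and more than 50% in 6 members. The extreme was rank 51, at 0.307, 23.6, 0.05001, 0.0568, 0.0253 and 0.0588 CPM in acute hypoxic fish 1 to 6. Acute controls were at 0 to 0.0317 CPM, on 2.05 counts in all. Post control fish 6 stood at 47.5 CPM and post hypoxic fish 1 at 50.5 CPM, with the other post fish at 0 to 0.840 CPM. The opposite was rank 94, with hypoxic fish at 4.22 to 7.36 CPM. Rank 51 was high in 3 fish of 3 groups and near 0 in the other 21, and 5 of its 6 hypoxic levels, 4 of them under 1 CPM, lay above the highest control. Its acute difference did not pass (edgeR adjusted p 1.00).

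The 100 members came from 89 read clusters and 82 larger components. Of the read clusters, 11 held 2 members each, and 1 component, that of ranks 1, 9 and 38, held 3 members. The acute L difference of the 2 members of a cluster differed by 0.01 to 0.85, with a median of 0.11, against a span of 3.28 over the list. In 7 of the 11 pairs the same acute hypoxic fish was highest for both. The same read clusters held 28 further features that were tested and are not members. Of these, 4 had an acute L difference of at least 1, or 14.3% against 2.28% of all tested features. In 18 it was above 0, or 64.3% against 73.6%. The 28 exclude members, whereas all tested features include them, and the clusters were chosen for holding a member. These shares are therefore a description. Features of 1 cluster can be parts, isoforms or close copies of 1 gene, so the number of genes behind the list is at most the number of members and is not known.

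Estimated counts that are not whole can come from reads shared between similar features. Of the nonzero member values 11.2% were not whole to within 1e-06, against 7.64% over all tested features. In 63 members every value was whole, and in 9 more than 50% of the nonzero values were not. Rank 51 had 14 such values, whereas ranks 2, 3, 42, 49, 59, 75, 87 and 88 had 0.

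The end of the list marks no break. Ranks 99 and 100 had acute L differences of 1.49 and 1.49, and the next 2 features in rank, outside the list, had 1.48 and 1.47. The members nearest to the bound on the post difference were rank 20 at -0.97 and rank 53 at 0.92. Rank 20 was uneven in every group, with 0 to 11.1 CPM in post controls and 0 to 8.71 CPM in post hypoxic fish, and rank 53 stood at 0.0623 to 1.02 CPM and 0.193 to 1.92 CPM. With TMM-scaled CPM in place of column sums 90 of the 100 members were kept, and with all 6 acute hypoxic fish required above the controls 34 were kept.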

How the data were processed

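Messenger RNA of muscle from 24 fish was selected with poly-T beads and sequenced, per the labels' protocols. Titles gave each fish its group and number. The values are estimated counts per feature, named so per the file headers, and their totals differ between libraries as deposited. Trimmomatic, RSEM and kallisto are listed, per the submitters' processing notes, and for versions, assembly and annotation nothing is given in the sources used here. Shared reads are split between similar features, which adds error to close copies. CPM used for the rule and for levels came from column sums (31085706 to 43603403). For tests, counts were rounded, filtered with filterByExpr of edgeR 4.0.16 (minimum count 10, minimum total 15; 65664 features kept, or 12.7%, with 98.9% to 99.6% of counts), scaled by TMM and fitted with the quasi-likelihood test (legacy form) to 4 group means. P-values were adjusted by Benjamini-Hochberg over all features tested, at 0.05. The SE is the log2 fold change divided by the root of F.

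The members and lists were chosen with earlier results of these data known. Described by value were ranks 1 to 10, the 5 most abundant members, all members called in the acute contrast, the ends of the list, the extremes of post difference and of share in 1 fish, up to 2 members each way per time contrast, and a component with 3 members. Alternatives were DESeq2 1.42.0, limma voom 3.58.1, other scalings and filters, a replicate block, the compared libraries alone, each library left out, and other forms of the rule; the newer quasi-likelihood method and the lists chosen without a fish were added after seeing the data. The fit was also run on simulated counts in which groups differed only by features raised in acute hypoxic libraries. That simulation held no time difference and no deviating fish, and nothing about the members is read from it. No 2 libraries of a group agreed within sampling noise (chi-square per feature 27.6 to 318 over 60 pairs, against 1). Molecular identifiers are not named, so counts need not be independent molecules.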

Additional observations from a re-analysis of the deposited data

Results flagged for a closer look

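In 28 of 134 sets of 6 fish, 1 fish was separated from its neighbours by an unusually wide gap, where chance flags about 1 in 20 unselected, independent sets. That rate does not apply here, since most sets are levels of members chosen by the rule, which lets 1 acute hypoxic fish stay low, some members were named for an extreme value, and all sets share the same 24 fish. Low acute hypoxic fish 1 accounted for 13 of the 28. Its mean L over the members was 0.94, against 2.59 to 3.21 in the other exposed fish, and on the list chosen without it the distance from controls was 0.0734. In L it stood at 1.65, 1.18, 2.49, 1.68, 1.57, -1.19 and -1.75 for ranks 1, 2, 3, 4, 5, 7 and 9. For ranks 13, 17, 59 and 69 it stood at 0.0751, 1.68, -1.62 and 4.00. The labels place this fish in the hypoxic group, and whether its exposure or label differed was not tested.

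High post hypoxic fish 1 stood out in L for rank 2 at 1.73, rank 5 at 3.55, rank 8 at -0.17 and rank 51 at 5.66. For rank 59 it was flagged at -2.93, on the 1 count of that group. High post control 2 stood out for ranks 4 and 5 at 2.58 and 2.62. Acute control 3 stood out for rank 8 at -0.67. Rank 51 also stood at 4.57 in acute hypoxic fish 2 and at 5.57 in post control 6. Rank 59 stood at -2.62 in post control 4, on the 2 counts of that group. Low values were those of post hypoxic fish 3 for rank 17 at -0.95, post control 6 for rank 20 at -3.32 (a count of 0) and acute hypoxic fish 5 for rank 94 at 2.11. Acute hypoxic fish 4 was high for rank 87 at 5.12.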

How the results depend on the processing

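Members called in the acute comparison numbered 11, and 36 with DESeq2, 5 with DESeq2 size factors in edgeR, 19 with library totals only, 25 with the newer method (added after seeing the data), 86 with no filter, 4 with the stricter filter, 26 at an adjusted p of 0.1, 0 with voom, 0 in the acute libraries alone, and 0 to 33 leaving out libraries. With a replicate block it was 0, but same-numbered fish deviated together by a correlation over 0.1 in 1 of 6 acute pairs (-0.264 to 0.134) and 3 of 6 post pairs (-0.158 to 0.433), and own-number partners correlated best in 1 and 2 fish, so fish were treated as unpaired. The difference of effects called 0 members, 50 unfiltered, 7 by DESeq2, and 0 to 2 when a library was dropped (2 for acute hypoxic fish 1). Calls between control time points were 15, 23 with library totals, 29 unfiltered and 14 to 17 with libraries left out; between hypoxic time points they were 53, and 38 to 55. The post count was 0 throughout. For these other settings the share of all features called is not set beside the member counts. They show how far the counts move with the setting, and nothing else about the members is read from them. The median acute log2 fold change was 1.72 to 2.11 leaving out libraries, the post one -0.17 to 0.22 and the control time one 0.21 to 0.49. Of the 100 members, 64 were kept with a pseudocount of 1 CPM, 34 with all 6 fish required above controls, and 67 (without acute control 5) to 96 leaving out libraries. Over 1051 alternative values of the acute change of the 32 named members, 0 reversed, 225 lost a call and 44 gained one. Only the 11 members called in the main fit could lose a call, so the 225 are not to be read over all 1051. No cause was tested for any change. Low counts limit the rarer members: 2.05 counts over 6 controls at rank 51.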
